A study of Homo sapiens with 6 samples.

Results

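The genes described here encode the factors that end translation and that free ribosomes which cannot end it in the usual way. They are ETF1, GSPT1, GSPT2, ABCE1, PELO and HBS1L, whose products work on cytosolic ribosomes, and HEMK1, MTRF1L, ICT1 and C12orf65, whose products work in mitochondria. The genes were picked by symbol for what their products do, and all 10 were found among the 19330 transcripts of the table. ICT1 is now called MRPL58 and C12orf65 is now called MTRFR, and the symbols of the table are kept below.

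Footprints were counted by ribosome profiling (Ribo-Seq), in which mRNA fragments protected by a ribosome from nuclease digestion are sequenced. The cells were K562, a human chronic myelogenous leukemia line, infected with a lentiviral CRISPR/Cas9 vector (pLentiCRISPRv2) whose guide RNA targeted N6AMT1 (sgN6AMT1, 3 libraries) or an olfactory receptor gene (sgCtrl, 3 libraries). Both groups were selected with puromycin for 48 h and were harvested on day 10 after infection. The study's methods describe 3 separate lentiviral transductions for each condition, no cloning of the infected cells is described, and the labels do not say which control guide each sgCtrl library carried.

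When a stop codon enters the cytosolic ribosome, eRF1 (encoded by ETF1) reads it and enters with the GTPase eRF3 (encoded by GSPT1 or GSPT2). A loop of eRF1 with the amino acids glycine, glycine and glutamine, the GGQ motif, then triggers release of the finished chain, and the ATPase ABCE1 splits the ribosome into its subunits. On ribosomes that have stalled with no stop codon in place, PELO and HBS1L take the places of eRF1 and eRF3, and ABCE1 again splits the subunits. Mitochondria use release and rescue factors of bacterial descent with the same GGQ motif. N6AMT1, with its partner TRMT112, methylates the glutamine of the motif in eRF1, and HEMK1 is the related methyltransferase of the mitochondrial factors.

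The motif was searched in the coding sequence (CDS) of each gene, because it is the part of these proteins that the targeted enzyme and HEMK1 act on. In the following stretches of the GENCODE transcripts, written 5′ to 3′ on the coding strand, capitals mark the GGQ codons.
ETF1: cacggtagaGGAGGTCAGtcagccttgcgt
MTRF1L: agtggagctGGGGGGCAGcatgtaaatacc
ICT1: agtggtcctGGGGGGCAGaatgtgaacaaa
C12orf65: cacggtccaGGGGGCCAGgcaaccaacaaa
The motif started at codon 183 of ETF1 (chr5:138512941-138512949, exon 6, minus strand), codon 250 of MTRF1L (chr6:152992906-152992914, exon 5, minus strand), codon 88 of ICT1 (chr17:75019738-75019746, exon 3, plus strand) and codon 71 of C12orf65 (chr12:123253885-123253893, exon 2, plus strand), all on GRCh38. MTRF1L held a GGQ at codon 138 as well. The translated CDS of GSPT1, GSPT2 and HBS1L also held these letters, in GSPT1 and GSPT2 at 2 places each, although these genes encode GTPases and not chain-releasing proteins. PELO, ABCE1 and HEMK1 held none. The letters GGQ stood in 1692 of the 17483 complete CDSs (9.68%), so their presence alone does not mark a release factor.

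The methyltransferases carry another short motif, asparagine, proline, proline and tyrosine (NPPY), at the catalytic site that holds the glutamine. Capitals mark its codons in the following stretches, shown to set the mitochondrial enzyme beside the targeted one.
HEMK1: attgtcagcAACCCTCCCTACgtcttccac
N6AMT1: ctggtgtttAATCCCCCCTATgtagtgact
The motif lay at codon 239 of HEMK1 (chr3:50578871-50578882, exon 8, plus strand) and codon 122 of N6AMT1 (chr21:28879891-28879902, exon 4, minus strand). NPPY occurred in 22 of 17483 complete CDSs (0.126%). Over 185 aligned positions the translated HEMK1 and N6AMT1 were 33.0% identical.

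The sgCtrl libraries held 2031944 to 2969736 counts and the sgN6AMT1 libraries 1821356 to 2277616. The guide's target was lower in all sgN6AMT1 libraries: N6AMT1 had 25, 24 and 34 footprints in sgCtrl and 10, 9 and 8 in sgN6AMT1, and its log2 occupancy changed by -1.51 (SE 0.31; adjusted p in edgeR 6.69e-05). The globin genes HBG1, HBG2 and HBE1, which K562 cells express, had 6925 to 28916 counts per library, and the erythroid genes GATA1, TAL1, KLF1 and LMO2 were detected in every library. Of the markers of other cell types, MS4A1 and CD14 were at 0 in all 6 libraries, CD3E and ALB had 0 to 10 counts, COL1A1 had 11 to 23, and the epithelial marker EPCAM had 322 to 522. Footprints follow the amount of mRNA as well as its translation, and the study's RNA sequencing was not used here, so a change below is a change in ribosome occupancy and not in translational efficiency.

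Of the 10 genes, 4 passed the threshold of 0.05 on the edgeR adjusted p (40%). Over all 9202 genes tested, 26.9% passed. Occupancy of GSPT1, ABCE1 and HBS1L fell in N6AMT1-depleted cells and that of HEMK1 rose. This is 3 of 10 lower, against 13.9% of all genes, and 1 of 10 higher, against 12.9%. With total counts and no scaling factors the table split into 1560 genes higher and 976 lower in place of 1191 and 1282, and the 10 genes into 2 higher and 2 lower. All 3 genes that fell were cytosolic (3 of 6, median log2 fold change -0.11, with 4 values below 0 and 2 above). The gene that rose was mitochondrial (1 of 4, median 0.08, with 2 values below 0 and 2 above). The 3 genes that fell had 283 to 1342 counts per library (SE 0.057 to 0.075) and the 4 mitochondrial genes 10 to 188 (SE 0.11 to 0.30). Falls as small as those of the 3 genes could be missed in the mitochondrial genes, and a difference between the compartments was not tested. The median over the 10 genes was -0.02 and that over all genes tested 0.01. DESeq2, the tool that the study used, was applied to the same counts. It called 1 of the 10, ABCE1, and 12.3% of the 10780 genes to which it gave an adjusted p. Without sgCtrl library 3 or without sgN6AMT1 library 2, edgeR called 2 of the 10. Over all genes these fits called 2226 of 9360 and 1859 of 9277, in place of 2473 of 9202.

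**Figure D1:**
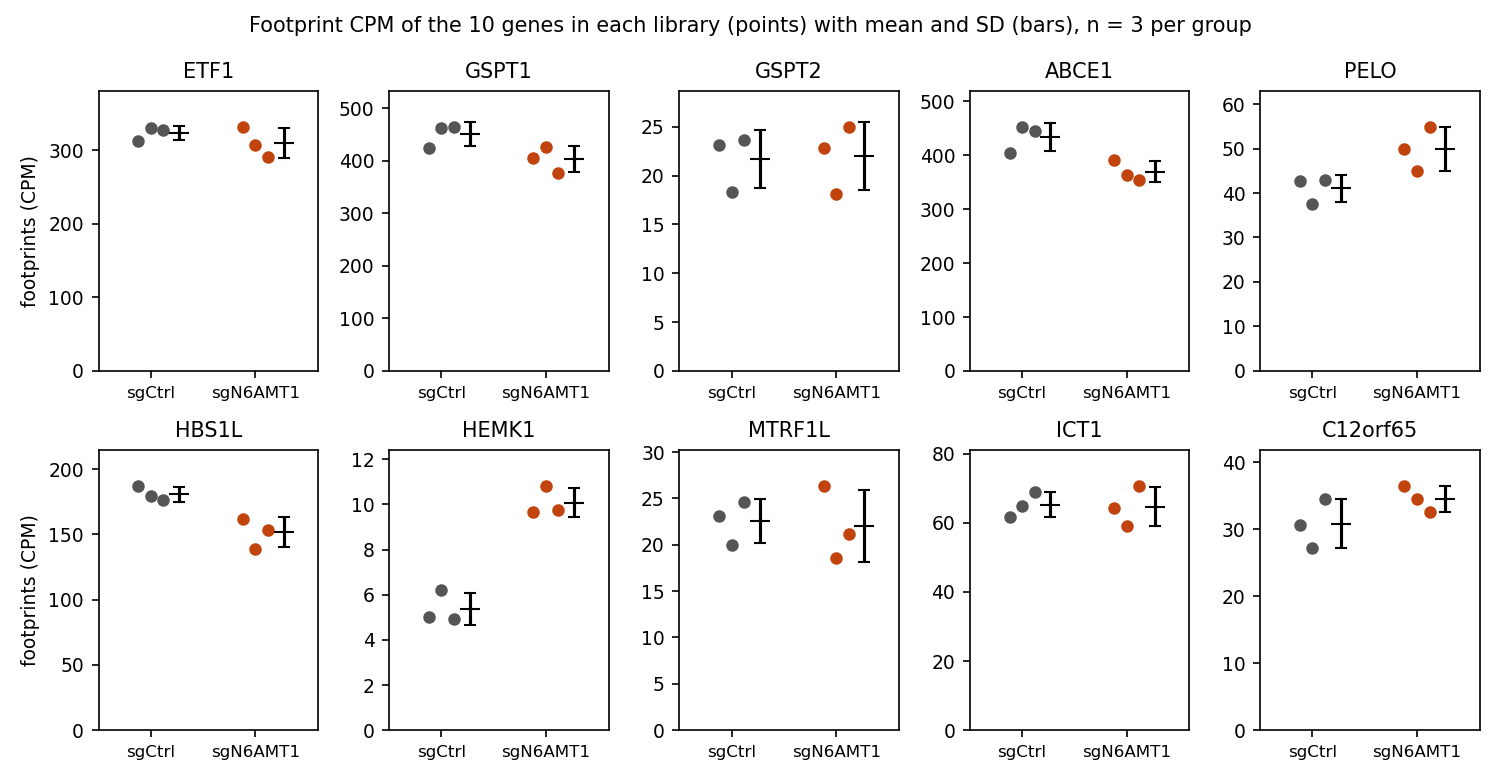
CPM of each gene (counts scaled to the TMM-adjusted library size, linear axes from 0) in the 3 sgCtrl (grey) and 3 sgN6AMT1 (orange) libraries, with the mean and SD of each group beside the points. The groups do not overlap for ABCE1 and HBS1L, which lie lower in sgN6AMT1, or for PELO and HEMK1, which lie higher.

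The groups did not overlap for 4 of the 10 genes, against 37.5% of all genes tested. The 10 genes together took 0.148% to 0.157% of all counts in sgCtrl and 0.141% to 0.152% in sgN6AMT1. The 6 cytosolic genes held 0.137% to 0.145% in sgCtrl and 0.127% to 0.138% in sgN6AMT1, and the 4 mitochondrial genes 0.0115% to 0.0130% and 0.0125% to 0.0139%. The ranges overlapped in each case.

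ETF1, the gene of the protein that N6AMT1 methylates, is on chromosome 5 (138506095 to 138543236, minus strand, 11 exons). The control libraries held 623, 958 and 665 ETF1 footprints, and the depleted ones 756, 711 and 536. Scaled to library size, as counts per 1000000 (CPM), these were 324 ± 9.39 CPM (SD, n = 3) and 310 ± 20.3 CPM (SD, n = 3), and the groups overlapped. The log2 fold change was -0.06 (SE 0.061, edgeR adjusted p = 0.495), with a 95% interval of -0.18 to 0.06. On the linear scale the interval ran from -11.9% to 4.16%. ETF1 passed the threshold under 0 of 15 alternative settings, DESeq2 included, and its unadjusted edgeR p was not under 0.05. The log2 value was -0.11 without sgN6AMT1 library 1, -0.03 without sgN6AMT1 library 3 and -0.01 with total counts.

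GSPT1 encodes eRF3a, the main GTPase partner of eRF1, and lies on chromosome 16 (11868128 to 11915956, minus strand, 15 exons). Its counts were 844, 1342 and 942 in sgCtrl and 923, 989 and 695 in sgN6AMT1. The CPM fell from 450 ± 22.9 (SD, n = 3) to 403 ± 25.0 (SD, n = 3), a difference of -0.16 in log2 units (SE 0.057; edgeR adjusted p = 0.0276), although the highest sgN6AMT1 library (427 CPM) lay above the lowest sgCtrl library (424 CPM). By the 95% interval GSPT1 occupancy changed by -17.2% to -3.14%. The call was lost with DESeq2 (adjusted p = 0.102), with total counts (adjusted p = 0.173), with a stricter filter on low counts (adjusted p = 0.0667), and without sgCtrl library 2 (adjusted p = 0.118), sgCtrl library 3 (adjusted p = 0.0936) or sgN6AMT1 library 3 (adjusted p = 0.144).

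GSPT2 encodes eRF3b from a copy of GSPT1 with a single exon on chromosome X (51743442 to 51746232, plus strand). It had 46, 53 and 48 footprints in sgCtrl and 52, 42 and 46 in sgN6AMT1. The groups overlapped. Its CPM was 21.7 ± 2.96 (SD, n = 3) and 22.0 ± 3.49 (SD, n = 3), and the log2 fold change was 0.03 (SE 0.18; adjusted p in edgeR 0.927). At these counts the 95% interval ran from -0.33 to 0.39, which includes the change of GSPT1.

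GSPT2 supplied a small share of eRF3 footprints. Of the footprints on GSPT1 and GSPT2 together, 5.17%, 3.80% and 4.85% were on GSPT2 in sgCtrl and 5.33%, 4.07% and 6.21% in sgN6AMT1. The 95% Wilson intervals of these shares spanned 2.92% to 6.83% over the sgCtrl libraries and 3.03% to 8.18% over the sgN6AMT1 libraries, and they overlapped. The intervals cover counting error only and not differences between libraries. They treat each read as a separate fragment, and removal of PCR duplicates is not described in the sources used here. The translated GSPT1 and GSPT2 were 89.2% identical over 620 aligned positions. At the nucleotide level 113 of 1862 stretches of 26 bases in the GSPT2 CDS (6.07%), the length of the shortest footprint kept, also stood in GSPT1. In the GSPT1 CDS 113 of 1889 such stretches, and 42 of 1881 of 34 bases, also stood in GSPT2. GSPT1 had 695 to 1342 counts per library and GSPT2 42 to 53. Even a small part of the GSPT1 footprints, if placed on GSPT2, would be a large part of the GSPT2 counts, and this was not tested. Footprints from those stretches cannot be placed with either gene, and how reads with several matches were counted is not given in the sources used here.

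ABCE1, which splits ribosomes after release and after rescue, is on chromosome 4 (145098311 to 145129524, plus strand, 18 exons). Its occupancy fell. The sgCtrl libraries had 404, 452 and 444 CPM and the sgN6AMT1 libraries 391, 364 and 354 CPM, so every sgN6AMT1 library was below every sgCtrl library. The raw counts were 804, 1312 and 901 against 893, 843 and 652. The log2 fold change was -0.23 (SE 0.058, edgeR adjusted p = 0.00112), or -14.7% with a 95% interval of -21.3% to -7.69%. ABCE1 was called under all 15 alternative settings, at adjusted p between 0.00018 and 0.0211, with DESeq2 at adjusted p = 0.0102. A CDS exon of ABCE1 overlaps an exon of OTUD4 on the opposite strand, and whether counting used the strand is not stated.

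PELO and HBS1L encode the pair that recognises stalled ribosomes. HBS1L, the eRF3-like GTPase on chromosome 6 (134960378 to 135054822, minus strand, 18 exons), had 187, 179 and 176 CPM in sgCtrl and 162, 139 and 154 CPM in sgN6AMT1, from 283 to 520 counts per library. Every sgN6AMT1 library was below every sgCtrl library, and log2 occupancy fell by 0.25 (SE 0.075; edgeR adjusted p = 0.00662), or by 16.1%. The adjusted p of DESeq2 was 0.0602, and that of edgeR without sgN6AMT1 library 2 was 0.113.

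PELO, the eRF1-like subunit on chromosome 5 (52787916 to 52804044, plus strand, 3 exons), had 42.7, 37.6 and 42.9 CPM in sgCtrl and 49.97, 44.9 and 54.8 CPM in sgN6AMT1, from 85 to 114 counts per library. Every sgN6AMT1 library lay above every sgCtrl library. The log2 fold change was 0.29 (SE 0.13, 95% interval 0.04 to 0.53), and the edgeR adjusted p was 0.0803, so PELO did not pass the threshold. It passed with total counts and no factors (adjusted p = 0.0325) and with a stricter filter on low counts (adjusted p = 0.0490), and the log2 fold change was 0.16 after trends on CDS length and GC content were removed (adjusted p = 0.343).

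Ratios of footprints on 2 genes of the same library do not depend on the scaling of libraries, and 7 such ratios were compared. The ratio of PELO to HBS1L was 0.228, 0.210 and 0.244 in sgCtrl and 0.308, 0.323 and 0.357 in sgN6AMT1. The groups did not overlap, and the mean log2 ratio was higher by 0.54 in sgN6AMT1, or 1.45-fold (2-sided exact permutation p = 0.1, the smallest that 3 against 3 libraries allows; Benjamini-Hochberg p = 0.35 over the 7 ratios). Leaving out each library in turn gave 0.48 to 0.59. These are ratios of read counts and not of protein amounts. Trends on CDS length and GC content need not cancel in them. With those trends removed, the edgeR log2 fold change was 0.16 for PELO and -0.21 for HBS1L, and the ratio itself was not recomputed.

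ABCE1 over ETF1 was 1.29, 1.37 and 1.35 in sgCtrl and 1.18, 1.19 and 1.22 in sgN6AMT1, again with no overlap. The log2 difference was -0.16 (exact permutation p = 0.1, Benjamini-Hochberg p = 0.35). The groups overlapped for the other 5 ratios. ETF1 over GSPT1 differed by 0.10 on the log2 scale (exact permutation p = 0.2), ETF1 over the sum of GSPT1 and GSPT2 by 0.09 (exact permutation p = 0.2), and GSPT2 over GSPT1 by 0.18 (exact permutation p = 0.4). No ratio passed the threshold, which the exact permutation test cannot reach with 3 libraries against 3.

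**Figure D2:**
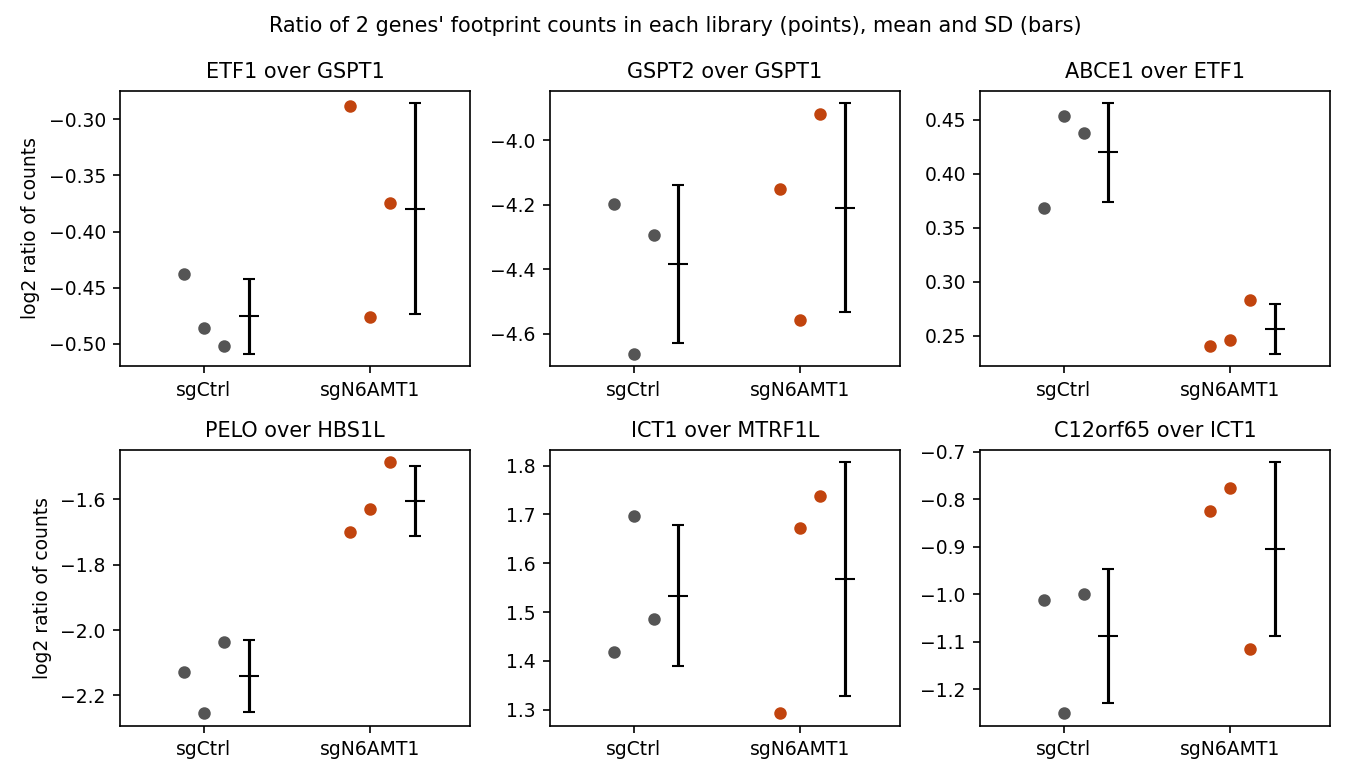
Log2 ratio of the footprint counts of 2 genes (vertical axes, each with its own range) in the 3 sgCtrl (grey) and 3 sgN6AMT1 (orange) libraries, with mean and SD beside the points. PELO over HBS1L lies higher and ABCE1 over ETF1 lower in all 3 sgN6AMT1 libraries, and the groups overlap in the other panels.

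Among the mitochondrial genes HEMK1 had the fewest footprints, and its occupancy rose. The gene is on chromosome 3 (50569493 to 50580672, plus strand, 11 exons), and the table's transcript is not the one that GENCODE release 44 marks as canonical. The counts were 10, 18 and 10 in sgCtrl and 22, 25 and 18 in sgN6AMT1, or 5.02, 6.21 and 4.93 CPM against 9.64, 10.8 and 9.77 CPM. Every sgN6AMT1 library was above every sgCtrl library. The log2 fold change was 0.87 (SE 0.30, edgeR adjusted p = 0.0187), or 1.83-fold with a 95% interval of 1.22 to 2.75. In size the change stood at percentile 95.6 of all genes tested. That rank took genes of all depths together and left their SE aside, so it does not compare HEMK1 with genes of like counts.

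With 10 to 25 counts in a library, the HEMK1 change was known with little precision. DESeq2 estimated nearly the same size, 0.88, at an adjusted p of 0.191. The edgeR call was lost without sgCtrl library 1 (adjusted p = 0.0530), sgCtrl library 3 (adjusted p = 0.0580) or sgN6AMT1 library 2 (adjusted p = 0.0817), and the log2 fold change stayed between 0.81 and 1.01 when any library was left out.

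MTRF1L encodes mtRF1a, a release factor of the mitochondrial ribosome, and lies on chromosome 6 (152987362 to 153002709, minus strand, 7 exons). It had 46, 58 and 50 footprints in sgCtrl and 60, 43 and 39 in sgN6AMT1, with a log2 fold change of -0.02 (SE 0.18, 95% interval -0.37 to 0.34, edgeR adjusted p = 0.961). The sgN6AMT1 libraries spanned the sgCtrl range, and a change within that interval was not detectable at this depth. An antisense long noncoding RNA overlaps a CDS exon of MTRF1L, and reads of the 2 genes cannot be told apart if counting ignored the strand.

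ICT1 encodes a peptidyl-tRNA hydrolase built into the mitochondrial large subunit, on chromosome 17 (75012670 to 75021261, plus strand, 6 exons). Mean CPM was 65.2 ± 3.63 in sgCtrl and 64.7 ± 5.70 in sgN6AMT1 (SD, n = 3 each), from 123 to 188 counts per library, and the groups overlapped. The log2 fold change was -0.02 (SE 0.11, 95% interval -0.24 to 0.21, edgeR adjusted p = 0.936).

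C12orf65, which encodes a rescue factor of stalled mitochondrial ribosomes, lies on chromosome 12 (123233446 to 123258079, plus strand, 3 exons), and its listed transcript is not the canonical one of GENCODE release 44. It had 61, 79 and 70 footprints in sgCtrl and 83, 80 and 60 in sgN6AMT1. The CPM was 30.8 ± 3.64 (SD, n = 3) and 34.5 ± 1.90 (SD, n = 3), and the log2 fold change was 0.19 (SE 0.15, 95% interval -0.10 to 0.47, edgeR adjusted p = 0.368). Without sgCtrl library 2 it was 0.08, and after trends on CDS length and GC content were removed 0.11. Within libraries, ICT1 over MTRF1L differed by 0.03 on the log2 scale (exact permutation p = 0.9) and C12orf65 over ICT1 by 0.18 (exact permutation p = 0.3).

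**Figure D3:**
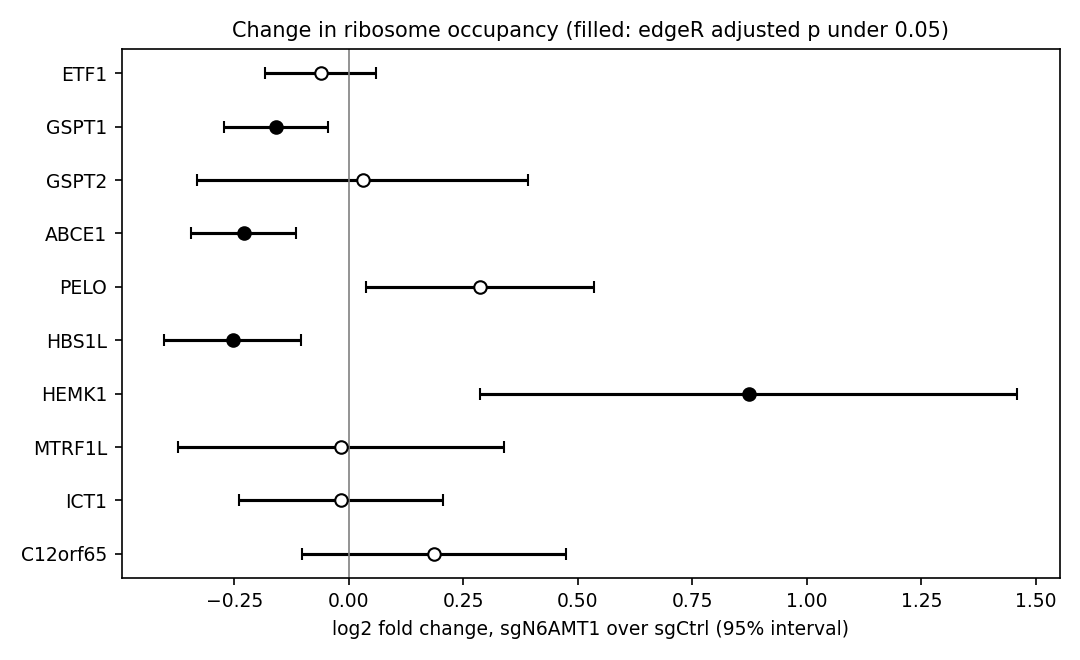
Log2 fold change of ribosome occupancy, sgN6AMT1 over sgCtrl (horizontal axis), with 95% intervals from edgeR over 3 libraries per group, and filled points where the adjusted p was under 0.05. GSPT1, ABCE1 and HBS1L lie below 0 and HEMK1 above 0, and the interval of HEMK1 (0.29 to 1.46) is the widest.

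Levels of different genes were compared per kilobase of CDS. In sgCtrl, ETF1 (247 ± 7.16 CPM per kilobase, SD, n = 3), ABCE1 (241 ± 14.4) and GSPT1 (236 ± 11.97) were at about the same density, and the ranges of neighbours in this order overlapped. These 3 stood at percentiles 90.6 to 91.1 of the 8607 genes with a known length. ICT1 followed at 106 ± 5.88, then HBS1L at 88.1 ± 2.71, C12orf65 at 61.8 ± 7.31, PELO at 35.5 ± 2.61, MTRF1L at 19.8 ± 2.08, GSPT2 at 11.5 ± 1.57 and HEMK1 at 5.31 ± 0.701. From ICT1 on, no neighbours in this order overlapped in range. Within the rescue pair, footprint density on the listed transcript was lower for PELO than for HBS1L in every library of both groups.

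In sgN6AMT1 the order changed among genes with close densities. ETF1 stood at 236 ± 15.5 CPM per kilobase, GSPT1 at 211 ± 13.1 and ABCE1 at 206 ± 10.8. HBS1L (73.9 ± 5.68) and C12orf65 (69.3 ± 3.82) overlapped in range, as did GSPT2 (11.7 ± 1.85) and HEMK1 (9.93 ± 0.626). PELO stood at 43.2 ± 4.28, MTRF1L at 19.3 ± 3.45 and ICT1 at 105 ± 9.22. When the first 15 and last 5 codons were left out of the length but not of the counts, all 10 genes kept their rank in sgCtrl. Only the length changed, so the effect of footprints near the start and stop codons on the order was not tested.

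**Figure D4:**
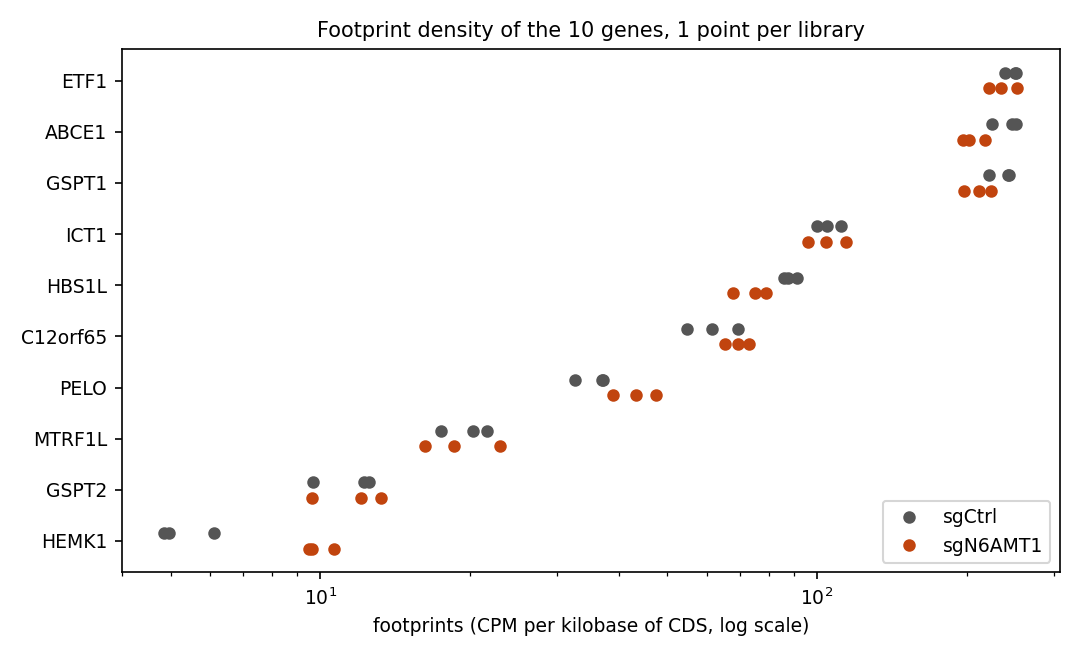
Footprints in CPM per kilobase of CDS (horizontal axis, logarithmic) of the 10 genes in the 3 sgCtrl (grey) and 3 sgN6AMT1 (orange) libraries, 1 point per library, ordered by the sgCtrl mean. ETF1, ABCE1 and GSPT1 form the top of the order and HEMK1 the bottom.

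The 10 genes differed in their own stop codons. TAA ended the CDS of GSPT1, GSPT2, MTRF1L and PELO, TAG that of ETF1, ABCE1 and HEMK1, and TGA that of HBS1L, ICT1 and C12orf65. Of 17483 complete CDSs, 28.6% ended in TAA, 22.2% in TAG and 49.2% in TGA. The 4 genes that passed the test are shown with their stop codon in capitals.
GSPT1: ccagagaaagacTAAgcattttct
ABCE1: ttcttggatgatTAGactgactct
HBS1L: gagataaaagaaTGAtgggtcaga
HEMK1: aggtctgggccaTAGcatggctgc
These codons lie at chr16:11873119-11873121, chr4:145127571-145127573, chr6:134965279-134965281 and chr3:50580415-50580417 on GRCh38, each in the last exon of its transcript. ABCE1, which fell, and HEMK1, which rose, ended in the same codon. A relation between the change of a gene and its stop codon was not tested.

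Some of the CDSs resemble each other or other transcripts. The translated eRF1-like PELO shared 28.3% of 300 aligned positions with ETF1, and the eRF3-like HBS1L 38.4% of 584 with GSPT1. Of the 19330 transcripts of the table, 17687 (91.5%) were matched to GENCODE release 44, and the others were not searched. Among those matched, stretches of 26 bases in the CDS were shared with another gene for GSPT1 and GSPT2 alone (6.78% and 6.07%). Against all transcripts of GENCODE release 44, the table's and others, the share was 80.0% for MTRF1L, 53.9% for ABCE1 and 42.9% for ETF1, the last with the pseudogenes ETF1P1, ETF1P2 and ETF1P3, and none of these copies is a transcript of the table. It was 1.08% for HBS1L and 0% for PELO, HEMK1, ICT1 and C12orf65. The part of such copies in the counts was not tested.

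A list of 44 further genes of termination, subunit recycling, stalled ribosomes and ribosome quality control was read from the same fit, and 42 of them were found in the table and tested. RACK1 and MAP3K20 were not analysed here. Occupancy rose for 3 and fell for 7, so that 10 of 42 passed (23.8%), beside 26.9% of all genes. The 7 that fell, and so the 10, include N6AMT1, the target of the guide. The median log2 fold change was -0.07. DESeq2 called 7 of the 42, N6AMT1 among them, beside 12.3% of the 10780 genes to which it gave an adjusted p.

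Of 7 further termination genes, 1 rose and 2 fell, among them N6AMT1, the target of the guide (42.9%, beside 26.9% of all genes). TRMT112, the partner that N6AMT1 needs, rose from 193 ± 9.43 to 251 ± 11.9 CPM (SD, n = 3; log2 fold change 0.38, SE 0.067, edgeR adjusted p = 3.58e-06). TRMT112 also serves other methyltransferases. PABPC1, the poly(A)-binding protein that contacts eRF3, fell from 482 ± 15.5 to 388 ± 23.9 CPM (SD, n = 3), a log2 fold change of -0.31 (SE 0.056). TRMT112 and PABPC1 were called under all 15 alternative settings, with TRMT112 at 0.24 (adjusted p = 0.000547) after trends on CDS length and GC content were removed.

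None of the 4 further recycling genes (EIF2D, MCTS1, DENR and EIF3J) passed the edgeR test, which 26.9% of all genes passed. At an unadjusted edgeR p under 0.05 there was 1, EIF2D (log2 fold change -0.27, adjusted p = 0.0825), beside 3390 of the 9202 genes tested. DESeq2 called 0 of the 4. Log2 fold changes of the other 3 lay between -0.09 and -0.01.

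Of 18 genes that act on stalled or collided ribosomes, 1 rose and 3 fell (22.2%, beside 26.9% of all genes). DESeq2 called 3 of the 18, beside 12.3% of all genes with an adjusted p in DESeq2. RNF14, a ubiquitin ligase that marks factors trapped on stalled ribosomes, had 62, 115 and 81 footprints in sgCtrl and 136, 131 and 128 in sgN6AMT1. It rose from 36.9 ± 4.99 to 61.9 ± 6.74 CPM (SD, n = 3), a log2 fold change of 0.72 (SE 0.12), and was called under all 15 alternative settings. ASCC1 (-0.46, SE 0.11) and ASCC3 (-0.31, SE 0.086), subunits of the complex that splits collided ribosomes, fell on the log2 scale. The other subunits did not pass, with ASCC2 at -0.11 and TRIP4 at 0.33 (adjusted p = 0.0671). ASCC3 missed the threshold after trends on CDS length and GC content were removed (-0.19, adjusted p = 0.0605).

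GCN1, which binds collided ribosomes, fell from 407 ± 9.66 to 363 ± 23.6 CPM (SD, n = 3), or -0.17 in log2 units (SE 0.058; edgeR adjusted p = 0.0222). The GCN1 call was lost with DESeq2 (adjusted p = 0.0876), with total counts (adjusted p = 0.143), with a stricter filter (adjusted p = 0.0538) and without sgCtrl library 1 (adjusted p = 0.0749), sgN6AMT1 library 1 (adjusted p = 0.139) or sgN6AMT1 library 2 (adjusted p = 0.0955).

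Of 9 quality control genes, which deal with the chain left on a split large subunit, 1 rose and 2 fell (33.3%, beside 26.9% of all genes). DESeq2 called 1 of the 9, beside 12.3% of all genes with an adjusted p in DESeq2. LTN1, the ubiquitin ligase of that complex, fell from 125 ± 10.3 to 96.6 ± 7.75 CPM (SD, n = 3; log2 fold change -0.37, SE 0.090, edgeR adjusted p = 0.00068). TCF25, a further subunit, fell by 0.43 on the log2 scale (SE 0.12), with an adjusted p of 0.0591 by DESeq2 and of 0.0647 by edgeR without sgN6AMT1 library 1. ANKZF1, which releases stalled chains, rose from 20.3 ± 2.02 to 29.2 ± 5.76 CPM (SD, n = 3), a log2 fold change of 0.54 (SE 0.17). The ANKZF1 call was lost with DESeq2 (adjusted p = 0.169) and without sgCtrl library 2 (adjusted p = 0.0553) or sgN6AMT1 library 2 (log2 fold change 0.36, adjusted p = 0.213). NEMF, the partner of LTN1, did not pass (log2 fold change 0.10, adjusted p = 0.531).

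None of 4 further mitochondrial genes (MTRF1, MRRF, GFM2 and C6orf203) passed the edgeR test, which 26.9% of all genes passed. Of these 4, 0 had an unadjusted edgeR p under 0.05, beside 3390 of the 9202 genes tested, and DESeq2 called 0. The values lay between -0.36 for MTRF1, the paralogue of MTRF1L (46.1% identical over 373 aligned positions), and -0.05 for GFM2.

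**Figure D5:**
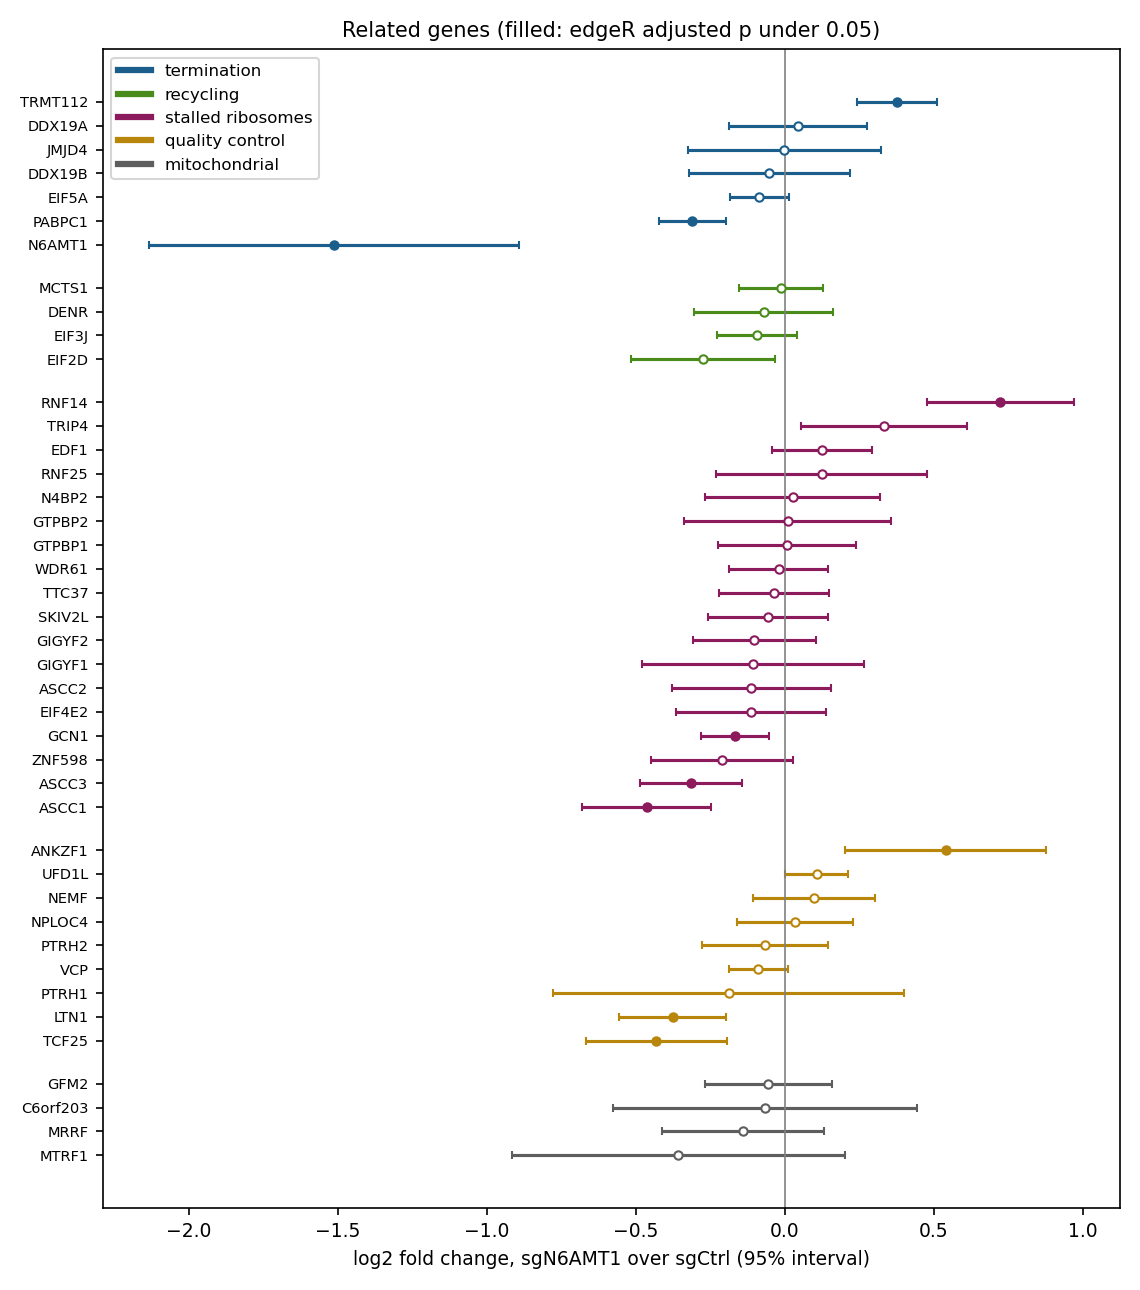
Log2 fold change, sgN6AMT1 over sgCtrl (horizontal axis), with 95% intervals from edgeR over 3 libraries per group, of 42 further genes in 5 coloured groups, and filled points where the adjusted p was under 0.05. N6AMT1 lies farthest below 0 and RNF14 farthest above, and no filled point falls in the recycling or mitochondrial groups.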

How the data were processed

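Per the labels and the study's methods, the authors trimmed reads with cutadapt, kept trimmed reads of 26 or 34 nt, removed rRNA and tRNA reads after mapping to GRCh38 with HISAT2 (Ensembl release 84), mapped the rest to canonical transcripts with Bowtie2 and summed riboWaltz P-sites over each CDS. They deposited raw counts per transcript, neither normalized nor pooled. The authors also counted overlaps with an annotation, and which counts were deposited is not stated. Lysates contained cycloheximide.

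Genes were tested with edgeR 4.0.16 (R 4.3.3; TMM factors, filterByExpr at a minimum of 10 counts, robust quasi-likelihood F tests, 2-sided, Benjamini-Hochberg over all 9202 genes tested, threshold 0.05). The filter removed 10128 genes with 0.465% of all counts, and all 10 genes described passed it. CPM values are scaled to the TMM-adjusted library size. The alternatives were DESeq2 1.42.0 on the same counts, RLE and upper-quartile factors, total counts, no filter, genes with a mean of 50 counts or more, limma-voom (limma 3.58.1), a replicate block, loess trends on CDS length and GC content (span 0.5) and fits without each library. Ratios were compared by exact permutation over libraries (scipy 1.17.1), and proteins were aligned with Biopython 1.88. Locations, CDSs and sequences came from GENCODE release 44 on GRCh38, matched by transcript identifier without version. Replicate libraries of a group differed by more than sampling noise (chi-square per degree of freedom 1.25 to 1.68; across groups 4.89 to 7.04) and were counted as 3 per group.

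The rule named the 10 genes, N6AMT1, TRMT112 and up to 10 related genes past the threshold. EIF2D, MCTS1, DENR, EIF3J, ASCC2, TRIP4, NEMF, MTRF1, MRRF, GFM2 and C6orf203 did not pass and were named after their values were seen. The alternatives for the related genes were added after seeing the data. The genes and lists were chosen with earlier results of these data known.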

Additional observations from a re-analysis of the deposited data

How the results depend on the processing

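ABCE1 (log2 fold change -0.28 to -0.18, 15 alternatives) and N6AMT1 (-1.80 to -1.25, 14 alternatives) kept their direction and their call throughout. DESeq2 called 1324 (585 higher, 739 lower) of the 10780 genes to which it gave an adjusted p. It called 1 of the 10, since GSPT1 (-0.17), HBS1L (-0.26) and HEMK1 (0.88) kept their sizes but lost the call. With total counts GSPT1 was at -0.10 (lost) and PELO at 0.34 (gained), and with a mean of at least 50 counts they were at -0.13 (lost) and 0.31 (gained). When each library was left out in turn, 2 to 4 of the 10 genes and 1859 to 2322 of all genes were called, GSPT1 ranged from -0.20 to -0.12, HBS1L from -0.31 to -0.19, HEMK1 from 0.81 to 1.01 and PELO from 0.21 to 0.36. The causes were not tested. Without factors the median over all genes was 0.06. The log2 fold changes of GSPT2, MTRF1L and ICT1, which were not called, took either sign over the alternatives.

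The replicate numbers did not pair the libraries (correlation of deviations -0.061, 0.020 and 0.016 for numbers 1 to 3). The replicate block called 4 of the 10 genes and 2390 of all genes, with GSPT1 at adjusted p = 0.0490. With the unchanged counts divided by the shortened CDS length, the sgCtrl levels of ETF1, ICT1 and C12orf65 were 259, 117 and 70.3 CPM per kilobase. Depth limited HEMK1, GSPT2 and MTRF1L most, at 10 to 60 counts per library.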
